A study of Mus musculus with 6 samples.

Results

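The 40 genes described here act in G2 and mitosis, the stretch of the cell cycle in which a cell that has copied its DNA prepares to divide and then separates its chromosomes. They are mitotic cyclins and their regulators, mitotic kinases, and genes of the spindle checkpoint, kinetochore, spindle, chromosome condensation and cytokinesis. The members were taken as the rows whose mouse Ensembl identifier maps to a fixed list of symbols. The rule uses no measured value, but the list was chosen with earlier results of these data known. All 40 symbols matched 1 of the 49585 gene rows each, all 40 are protein coding, and all 40 passed the low-count filter.

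The genes were measured by bulk RNA sequencing in haematopoietic stem cells (HSCs), the marrow cells that sustain blood formation. The series concerns CD38, a surface enzyme that consumes NAD, and dormancy, in which an HSC rests undivided for long periods. HSCs of untreated C57BL/6 mice aged 8 to 16 weeks were sorted as lineage-negative cells that were Kit+ and Sca-1+, CD48- and CD34-, CD150+ and CD201+. They were split by surface CD38 into 3 CD38-positive (CD38hi) and 3 CD38-negative (CD38lo) libraries. Each library pools the HSCs of 10 mice, no allele or agent is named for either group, and the design text joins 1 library of each population into each of 3 pairs. Whether the 2 libraries of a pair share their mice, and the sex of the mice, is not given in the sources used here. Pools stand for the replicates, so an n of 3 counts pools and not animals.

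Cyclin B bound to the kinase Cdk1 drives entry into mitosis, and its destruction by a ubiquitin ligase, the anaphase promoting complex, lets the cell leave it. Most of these transcripts are made late in the cycle and are scarce in resting cells, so their level in a population is widely used as a measure of how many cells are dividing. Adult HSCs are mostly quiescent in undisturbed marrow. A pair of short elements is known in promoters of such genes: CCAAT boxes, bound by the factor NF-Y, and the cell cycle genes homology region (CHR), bound by LIN54 of the MuvB complex.

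Promoter sequences are shown as a description. The members shared much of their order over the libraries, as given below, and whether promoter elements had a part in this was not tested. For each sequence the 250 bases before the start site are printed 5′ to 3′ on the gene's strand, with CCAAT or its reverse complement ATTGG in capitals. The CHR hexamer TTTGAA is in capitals too, as is the form TTCAAA that it takes on the other strand. So is the variant hexamer TTCGAA, which reads the same on both strands. Both strands were searched and overlapping matches each counted. The promoters are those of highest mean expression among members that hold both kinds of match before the start site and whose window overlaps no annotated exon. They come from RefSeq on GRCm38.p6: Top2a at chr11:99024190-99024439 on the minus strand, Ccnb2 at chr9:70421555-70421804 on the minus strand, Smc2 at chr4:52438971-52439220 on the plus strand and Mki67 at chr7:135716380-135716629 on the minus strand.
Top2a: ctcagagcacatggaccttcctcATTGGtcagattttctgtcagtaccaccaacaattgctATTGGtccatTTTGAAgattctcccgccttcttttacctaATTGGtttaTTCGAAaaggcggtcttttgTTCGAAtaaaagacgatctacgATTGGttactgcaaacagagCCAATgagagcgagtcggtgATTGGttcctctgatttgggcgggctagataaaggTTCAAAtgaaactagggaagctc
Ccnb2: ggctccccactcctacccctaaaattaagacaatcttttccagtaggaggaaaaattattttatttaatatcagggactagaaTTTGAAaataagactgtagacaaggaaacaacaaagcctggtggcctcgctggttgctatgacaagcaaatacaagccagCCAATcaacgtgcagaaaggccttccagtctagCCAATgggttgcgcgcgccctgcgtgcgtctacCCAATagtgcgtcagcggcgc
Smc2: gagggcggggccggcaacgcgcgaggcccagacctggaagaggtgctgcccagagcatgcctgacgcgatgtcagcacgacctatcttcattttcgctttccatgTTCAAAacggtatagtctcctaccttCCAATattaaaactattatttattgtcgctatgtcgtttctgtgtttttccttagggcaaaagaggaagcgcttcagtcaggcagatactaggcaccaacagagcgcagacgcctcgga
Mki67: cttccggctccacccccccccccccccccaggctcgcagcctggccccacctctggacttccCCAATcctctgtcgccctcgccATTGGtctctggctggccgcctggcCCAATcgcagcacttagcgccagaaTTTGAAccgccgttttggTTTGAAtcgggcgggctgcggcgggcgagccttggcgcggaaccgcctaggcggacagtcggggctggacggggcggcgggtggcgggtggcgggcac

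The Top2a window held 6 CCAAT matches and 4 CHR hexamers, and the last hexamer began 23 bases before the start site (position -23). In Ccnb2 the 3 CCAAT matches began at -87, -54 and -21, and the hexamer at -167. The printed bases of Smc2 held 1 match of each kind, CCAAT at -119 and the hexamer at -145. Those of Mki67 held 3 CCAAT matches and 2 hexamers. Ccnb2 and Smc2 each held another hexamer after the start site, beyond the printed bases, at positions 4 and 26.

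RefSeq windows from 250 bases before to 50 bases after the start site were found for 32 of the 40 members. Those of Ccna2, Cdc25c, Foxm1, Aurkb, Incenp, Kif20a, Tpx2 and Smc4 were not used here. A CCAAT match on either strand was present in 27 of the 32 members (84.4%), against 41.1% of 27025 genes in the table. A CHR hexamer was present in 26 (81.2%), against 21.7% of all genes, and both were present in 25 (78.1%), against 8.61%. At least 2 CCAAT matches were found in 17 members (53.1%, against 13.3% of all genes). Among 67 other G2 and mitosis genes 44.8% held both, among 41 genes of DNA replication and S phase 14.6%, and among 15 subunits or partners of the anaphase promoting complex 0.0%. Matches were not spread evenly: the 40 CHR hexamers of the 35 member promoters had a median position of -10, and the 67 CCAAT matches one of -74. A hexamer that began within 50 bases of the start site was found in 77.1% of the member promoters and in 5.31% of the 32851 promoters of the table. A match is a run of letters and not a shown binding site, and members were not chosen by sequence.

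**Figure D1:**
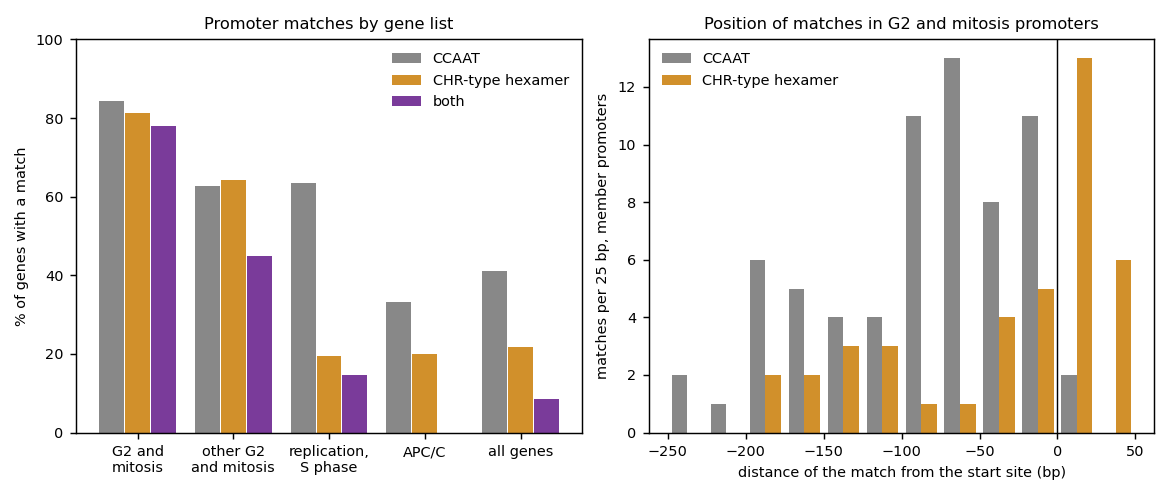
Left, percent of genes in each list with a CCAAT match, a CHR hexamer or both in the 300-base RefSeq promoter window. Right, number of matches per 25 bases in the 35 member promoters by distance from the start site in bases, where CCAAT matches lie around a median of -74 and CHR hexamers around -10.

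The libraries held 16771180 to 18558610 reads over genes and 19998 to 21733 genes with at least 1 read, and 3 reads correspond to 0.166 to 0.183 CPM, read counts scaled to library size. This floor covers counting error alone: without molecular identifiers, reads are not separate molecules. The fewest reads of any member in any library was 144, well clear of that floor. Cd38 itself was at 37.0, 46.3 and 58.3 CPM in the CD38-positive libraries of pairs 1, 2 and 3 and at 24.2, 35.6 and 23.9 CPM in their partners. All 13 stem cell marker genes were detected in every library, but so were genes of lineage-positive cells that the sort should remove: 11 late neutrophil genes summed to 61607 to 147116 CPM. All values are CPM on scaled library sizes, and differences are log2 of CD38-positive over CD38-negative.

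None of the 40 members differed between CD38-positive and CD38-negative HSCs past the threshold. By edgeR's quasi-likelihood test, with the pair as a block, the smallest Benjamini-Hochberg adjusted p among them was 0.925, and 0 of 40 had one under 0.05. Of all 14785 genes tested 0.0135% did. DESeq2 also called 0 members. At an unadjusted p under 0.05 the edgeR test found 5 members, all higher in CD38-positive HSCs (Incenp, Ccna2, Racgap1, Aurkb and Cenpe). Over all genes the share was 5.08% in either direction, and 365 of 14785 genes were higher in CD38-positive HSCs at that threshold. DESeq2 found 6 members, and its share over all genes is not given here.

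The direction of the estimates was lopsided. The log2 fold change was above 0 in 38 of 40 members (95%, against 50.1% of all tested genes), with a median of 0.295 over members and 0.00 over all genes. The size of the estimates came mostly from pair 2. There the median member difference was 0.93, 38 of 40 members were higher in the CD38-positive library, and 14 were at least 2-fold higher. In pairs 1 and 3 no member was 2-fold apart. Their medians were 0.093 and -0.114, with 33 and 18 members higher; with unscaled library totals both medians changed sign, to -0.034 and 0.021. That scaling moved the median of all genes to -0.125 in pair 1 and 0.16 in pair 3. Relative to the median of all genes the members stood at 0.09, 0.95 and -0.14 in pairs 1, 2 and 3 under all 5 scalings and settings compared. With pair 2 left out the median log2 fold change was 0.006 and 20 of 40 members were above 0.

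Agreement over the 3 pairs was limited. There were 12 members higher in the CD38-positive library of all 3 pairs, where the share over all genes was 13.2%, and 0 lower in all 3, where it was 11.3%. In no member did the 3 CD38-positive values lie wholly above or wholly below the 3 CD38-negative ones, a pattern that 3.33% and 3.19% of all genes showed. Summed over the 40 members, the level was 7928 and 7288 CPM in pair 1 (here and in each pair that follows, the CD38-positive library is given first), 6914 and 3703 CPM in pair 2, and 5111 and 5420 CPM in pair 3. The CD38-negative library of pair 2 thus had the lowest sum, and the groups overlapped, at 6651 ± 1427 CPM in CD38-positive and 5470 ± 1793 CPM in CD38-negative libraries (SD, n = 3). In bulk RNA, fewer dividing cells and less of these transcripts per cell cannot be told apart.

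**Figure D2:**
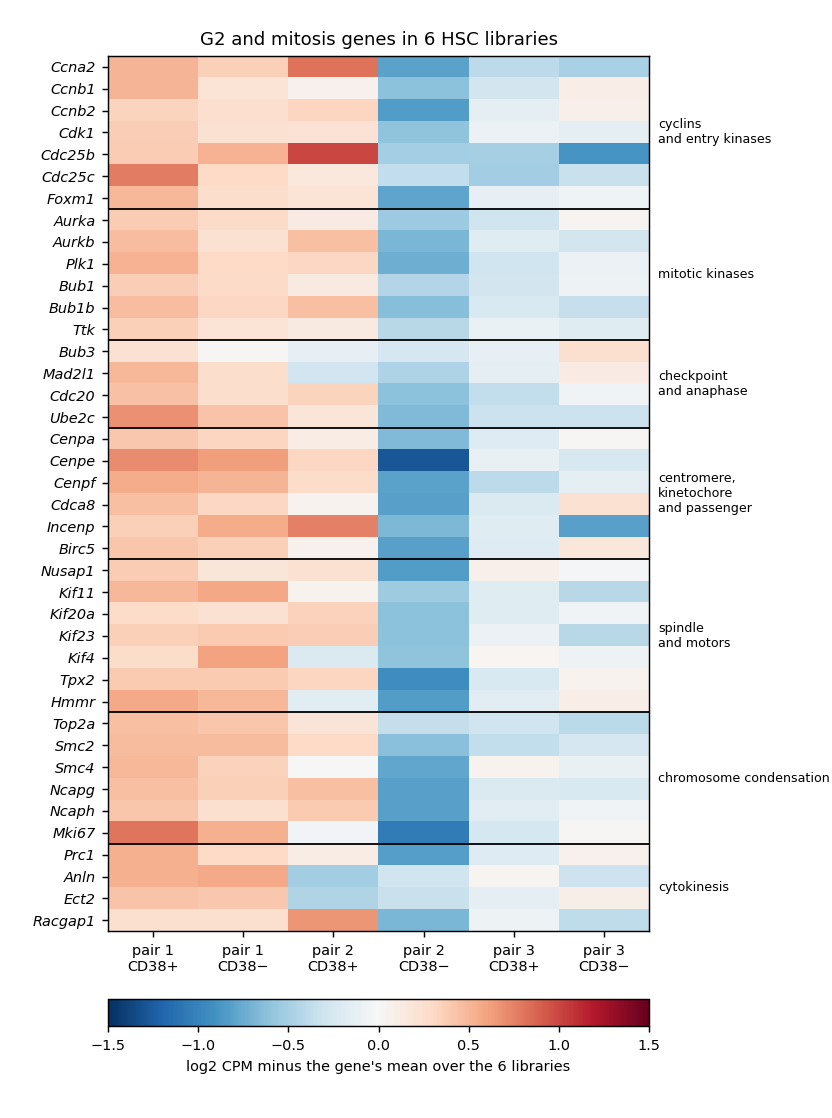
Each row is 1 of the 40 genes and each column 1 library; colour is log2 CPM minus the gene's mean over the 6 libraries, red above and blue below. The CD38-negative library of pair 2 is the lowest in 34 rows, and both pair 1 libraries are above both pair 3 libraries in 39 rows.

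The mitotic cyclins and the genes that switch Cdk1 on were all above 0 in their fitted fold change, 7 of 7, with a median of 0.33; in pairs 1, 2 and 3 the group medians were 0.16, 0.98 and -0.06. None passed the threshold. Here and in the groups that follow, values of pairs 1 and 3 are on the TMM scale; unscaled totals would move them by the shift of all genes. Ccna2 (GRCm38 chromosome 3, 36564865 to 36572150, minus strand), whose product cyclin A2 activates Cdk2 and Cdk1, stood at 563 and 504 CPM in pair 1, 692 and 227 CPM in pair 2, and 301 and 281 CPM in pair 3. The CD38-positive library of pair 2 was the highest of the 6 and its partner the lowest. Its log2 fold change was 0.61 (SE 0.27; edgeR unadjusted p = 0.0411, adjusted p = 0.926), at 519 ± 199 against 337 ± 147 CPM (SD, n = 3), and the groups overlapped. By pair the Ccna2 differences were 0.16, 1.61 and 0.10, so it was higher in 3 of 3 pairs, 3.05-fold in pair 2 and 1.12-fold and 1.07-fold in the others.

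Ccnb1 (chromosome 13, 100778650 to 100786570, minus strand), the cyclin B of mitotic entry, was at 250 and 203 CPM in pair 1, 184 and 115 CPM in pair 2, and 145 and 189 CPM in pair 3. Pairs 1 and 2 had the CD38-positive library higher and pair 3 the CD38-negative one, and the fitted log2 fold change was 0.20 (SE 0.22). Ccnb2, the second B-type cyclin, was at 279 and 265 CPM, 277 and 124 CPM, and 200 and 233 CPM in pairs 1 to 3. Only the CD38-negative library of pair 2 lay well below the rest in Ccnb2, and the log2 fold change was 0.33 (SE 0.25). Cdk1 (chromosome 10, 69335146 to 69352938, minus strand), the kinase these cyclins activate, was at 279 and 253 CPM, 250 and 142 CPM, and 203 and 196 CPM. It was higher in the CD38-positive library of 3 of 3 pairs, by 0.14, 0.81 and 0.05, for a log2 fold change of 0.33 (SE 0.21; edgeR unadjusted p = 0.129).

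Foxm1 (chromosome 6, 128362967 to 128376146, plus strand), a transcription factor that activates many of the other members, was the member of the lowest level per length. It was at 19.4 and 16.6 CPM in pair 1, 16.0 and 8.01 CPM in pair 2, and 12.7 and 13.2 CPM in pair 3. Its pattern was that of most members, with the lowest value in the CD38-negative library of pair 2 and a log2 fold change of 0.38 (SE 0.27). The phosphatases that remove the inhibitory phosphates from Cdk1 differed from each other in their order. Cdc25b ran from 16.7 CPM in the CD38-negative library of pair 3 to 61.6 CPM in the CD38-positive library of pair 2. Cdc25c ran from 9.65 to 23.7 CPM and was lowest in the CD38-positive library of pair 3.

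The 6 mitotic kinases were higher in the CD38-positive library of pairs 1 and 2 in 6 of 6 members each and in 3 of 6 in pair 3, with pair medians of 0.16, 0.86 and -0.06. All 6 were highest in the CD38-positive library of pair 1 and lowest in the CD38-negative library of pair 2. Aurkb (chromosome 11, 69045647 to 69051664, plus strand), the kinase of the chromosomal passenger complex that corrects faulty spindle attachments, was at 185 and 157 CPM, 184 and 83.5 CPM, and 119 and 111 CPM in pairs 1 to 3. The CD38-positive libraries of pairs 1 and 2 were level, and pair 3 was low in both populations. The Aurkb log2 fold change was 0.49 (SE 0.22; edgeR unadjusted p = 0.0459, adjusted p = 0.926), with 3 of 3 pairs higher. Plk1 (chromosome 7, 122159439 to 122169873, plus strand), a kinase that acts from mitotic entry to cytokinesis, was at 165 and 141 CPM, 143 and 69.3 CPM, and 93.7 and 109 CPM. Pair 3 went the other way from pairs 1 and 2, and the log2 fold change was 0.35 (SE 0.23). Aurka, needed for spindle poles, ranged from 78.4 to 149 CPM. The checkpoint kinases Bub1, Bub1b (which encodes the pseudokinase BubR1) and Ttk (Mps1) had ranges of 51.6 to 90.7, 72.1 to 155 and 33.2 to 56.9 CPM.

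The 4 genes of the spindle checkpoint and the anaphase promoting complex were the group with the lowest median, 0.16. Their pair medians were 0.23, 0.51 and -0.29, and 3 of 4 were lower in the CD38-positive library of pair 3. Bub3, which brings Bub1 and BubR1 to kinetochores, varied least of all members. It was at 407 and 350 CPM in pair 1, 319 and 292 CPM in pair 2, and 319 and 409 CPM in pair 3. Its highest library was 1.40 times its lowest, the smallest ratio among the 40, and its fitted log2 fold change was -0.0024 (SE 0.20), slightly above 0 under other settings. Ube2c (chromosome 2, 164769898 to 164778822, plus strand), the ubiquitin-conjugating enzyme of the anaphase promoting complex, was at 380 and 319 CPM, 269 and 150 CPM, and 190 and 190 CPM. It separated the pairs more than the populations: both pair 1 libraries were above both of pair 3, and pair 3 was level. The Ube2c log2 fold change was 0.37 (SE 0.21; edgeR unadjusted p = 0.102). Cdc20, the activator of that complex at anaphase, ranged from 108 to 224 CPM and Mad2l1, its checkpoint inhibitor Mad2, from 91.6 to 178 CPM.

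The kinetochore and chromosomal passenger genes held both the widest-ranging member and the member of the smallest p. Cenpe (chromosome 3, 135212537 to 135273611, plus strand), a kinetochore motor that moves chromosomes to the spindle equator, was at 99.8 and 94.1 CPM in pair 1, 75.8 and 24.96 CPM in pair 2, and 56.3 and 51.4 CPM in pair 3. The CD38-negative library of pair 2 was 3.998 times below the CD38-positive library of pair 1, the largest such ratio among the members. Its log2 fold change was 0.59 (SE 0.27; edgeR unadjusted p = 0.0463, adjusted p = 0.926), from pair differences of 0.085, 1.60 and 0.13. Incenp (chromosome 19, 9872296 to 9899551, minus strand), the scaffold of the passenger complex, was at 119 and 137 CPM, 157 and 58.7 CPM, and 82.5 and 53.3 CPM. Here pairs 2 and 3 had the CD38-positive library higher and pair 1 the CD38-negative one. The Incenp log2 fold change was 0.62 (SE 0.26; edgeR unadjusted p = 0.0320, adjusted p = 0.925), at 120 ± 37.4 against 82.9 ± 46.8 CPM (SD, n = 3).

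The other 2 passenger subunits had a different order of libraries from Incenp and Aurkb. Cdca8 (borealin) was at 244 and 221 CPM, 185 and 101 CPM, and 154 and 209 CPM, and Birc5 (survivin) at 235 and 226 CPM, 184 and 99.96 CPM, and 153 and 197 CPM. In pair 3 their differences were -0.44 and -0.37, while that of Incenp was 0.63. Their fitted log2 fold changes were both 0.19 (SE 0.24 for Cdca8 and 0.23 for Birc5). Cenpa, the histone H3 variant that marks centromeres, ranged from 108 to 227 CPM, and Cenpf, a large kinetochore protein, from 25.5 to 65.3 CPM.

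The spindle and motor genes were higher in the CD38-positive library of pair 2 in 7 of 7 members, with a median of 0.96, and were the group with the lowest median in pair 1, -0.006. All 7 were lowest in the CD38-negative library of pair 2. Nusap1 (chromosome 2, 119618298 to 119651244, plus strand), which bundles spindle microtubules, was at 316 and 274 CPM, 283 and 135 CPM, and 255 and 237 CPM in pairs 1 to 3. It was higher in CD38-positive HSCs in 3 of 3 pairs, and its log2 fold change was 0.46 (SE 0.22; edgeR unadjusted p = 0.0575). Kif20a (chromosome 18, 34624613 to 34633277, plus strand), a kinesin of the central spindle, was at 210 and 203 CPM, 220 and 113 CPM, and 153 and 167 CPM. Of its 6 libraries 5 lay between 153 and 220 CPM, and its log2 fold change was 0.29 (SE 0.23). The other 5 were Kif11, which pushes spindle poles apart (31.1 to 67.3 CPM), Kif23 of the central spindle (73.9 to 149 CPM), the chromokinesin Kif4 (30.7 to 71.0 CPM), the spindle assembly factor Tpx2 (85.6 to 214 CPM) and Hmmr (53.4 to 142 CPM). Of these, Kif11, Kif23, Kif4 and Tpx2 were highest in the CD38-negative library of pair 1.

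In the chromosome condensation group 6 of 6 members were higher in the CD38-positive library of pairs 1 and 2, and 3 of 6 in pair 3, with pair medians of 0.12, 0.96 and -0.05. Top2a (chromosome 11, 98992943 to 99024189, minus strand), the topoisomerase that untangles sister chromatids, and the gene of the promoter with the most matches shown, was at 509 and 495 CPM, 424 and 290 CPM, and 302 and 281 CPM. It was nearly the same in both libraries of pairs 1 and 3 and differed between those pairs; its lowest value was in the CD38-negative library of pair 3, and its log2 fold change was 0.23 (SE 0.20). Smc4, a core condensin subunit, was at 484 and 434 CPM, 340 and 198 CPM, and 353 and 317 CPM. Smc4 was higher in 3 of 3 pairs, and its log2 fold change was 0.36 (SE 0.20; edgeR unadjusted p = 0.0972).

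Mki67 (chromosome 7, 135689784 to 135716361, minus strand) encodes Ki-67, the coat protein of mitotic chromosomes that is stained to count cycling cells. It was at 196 and 164 CPM in pair 1, 109 and 54.7 CPM in pair 2, and 93.6 and 114 CPM in pair 3. Both pair 1 libraries were above the other 4, and the CD38-negative library of pair 2 was the lowest, 3.59 times under the highest. Its log2 fold change was 0.32 (SE 0.23), with 2 of 3 pairs higher. The condensin genes Smc2, Ncapg and Ncaph ranged from 90.6 to 194, 74.4 to 178 and 60.3 to 141 CPM.

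Cytokinesis genes were the least uniform group: in pair 2, 2 of 4 members were higher in the CD38-positive library. Racgap1 (chromosome 15, 99620496 to 99651656, minus strand), which with Kif23 forms the complex that marks the division plane, was at 202 and 201 CPM, 271 and 106 CPM, and 162 and 132 CPM. Pair 1 was level and pair 2 was 2.55-fold apart. The Racgap1 log2 fold change was 0.55 (SE 0.24; edgeR unadjusted p = 0.0410, adjusted p = 0.926). Prc1, the microtubule bundler of the central spindle, was at 250 and 214 CPM, 188 and 97.9 CPM, and 151 and 182 CPM, with a log2 fold change of 0.30 (SE 0.23). Anln and Ect2, which organise the contractile ring, were the 2 members lower in the CD38-positive library of pair 2. Anln was at 36.0 and 41.9 CPM there and Ect2 at 62.6 and 68.3 CPM, and in both the CD38-positive library of pair 2 was the lowest of all 6. These 2 genes were singled out after their values were seen. Ect2 and Bub3 were the 2 members with a fitted log2 fold change below 0.

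**Figure D3:**
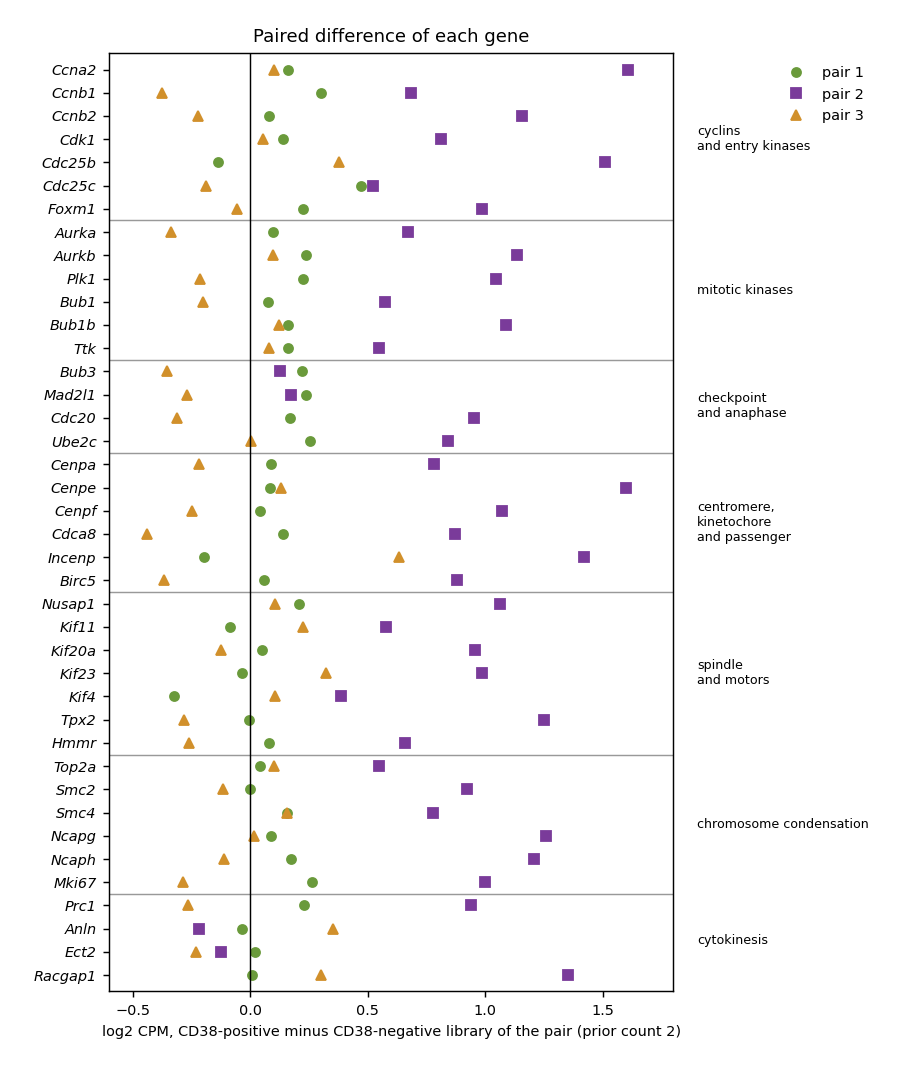
For each of the 40 genes, the log2 CPM of the CD38-positive library minus that of its CD38-negative partner (prior count 2), with 1 symbol per pair. Pair 2 lies to the right of 0 in 38 genes with a median of 0.93, pair 1 in 33 with 0.093 and pair 3 in 18 with -0.114. With unscaled library totals the medians of pairs 1 and 3 change sign, and those of all genes are -0.125 and 0.16. Relative to the median of all genes the members stay at 0.09 and -0.14 in pairs 1 and 3.

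Levels of different genes were compared per kilobase of exon, where the length is that of the merged exons of all annotated transcripts of a gene. The order of genes thus depends in part on how many exons are annotated. Members spanned from 2.49 CPM per kilobase in Foxm1 to 150 in Ccnb2, with a median of 26.1. On this scale Ccna2 (105), Ube2c (96.1) and Cdc20 (91.9) followed Ccnb2, and Cdc25c (2.98) and Cenpf (3.05) were next to Foxm1 at the low end. The spread between libraries was smaller than the spread between genes: the highest library of a member was 2.32 times its lowest at the median over members. Counts of 12 members could have gained or lost reads where they overlap an exon on the opposite strand. Examples are Exosc9 with Ccna2, Elovl1 with Cdc20 and Cdc23 with Kif20a. The strand setting is not given in the sources used here.

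**Figure D4:**
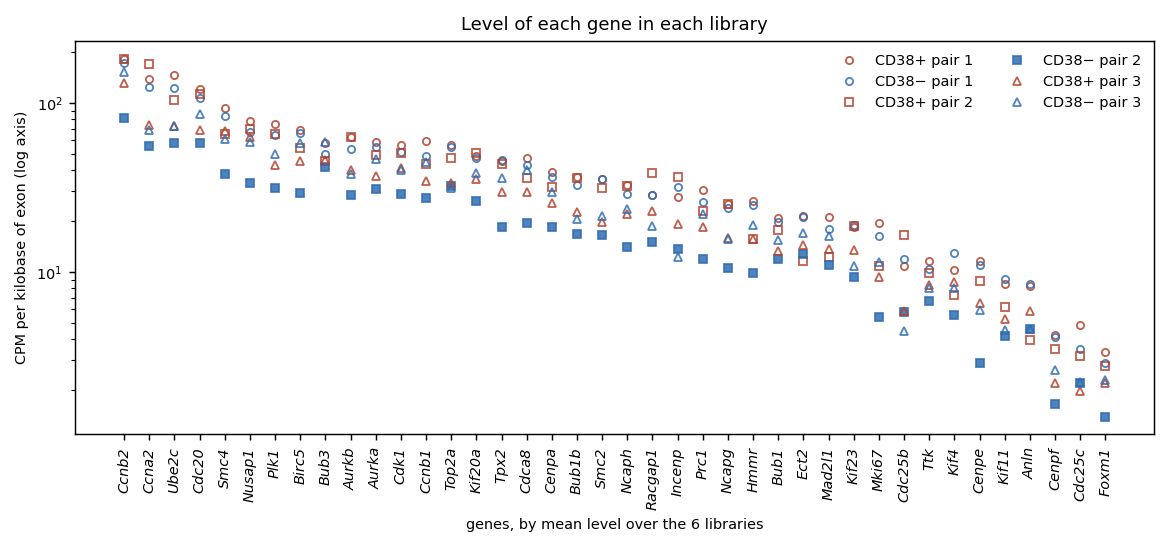
CPM per kilobase of exon (log axis) of each of the 40 genes in the 6 libraries, with genes in order of their mean level from Ccnb2 at 150 to Foxm1 at 2.49. Red symbols are CD38-positive and blue CD38-negative libraries, shape gives the pair, and the filled square is the CD38-negative library of pair 2, the lowest symbol in 34 genes.

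The members shared much of their order over the libraries. Both libraries of pair 1 were above both of pair 3 in 39 of 40 members, against 26.6% of all genes. With unscaled totals this held in 38 members, against 18.6% of all genes. The CD38-negative library of pair 2 was the lowest of the 6 in 34 of 40 members (33 with unscaled totals), while over all tested genes it was the lowest in 19.9%. Of the other 6 members, Cdc25b, Incenp and Top2a were lowest in the CD38-negative library of pair 3, Anln and Ect2 in the CD38-positive library of pair 2, and Cdc25c in that of pair 3. The CD38-positive library of pair 1 was the highest in 29 members, against 15.6% of all genes, but in 23 with DESeq2 size factors and 11 with unscaled totals, where the other pair 1 library took its place at the head of the summed level. Relative to each gene's mean over the libraries, the median member was at 0.45 and 0.31 in pair 1, 0.20 and -0.66 in pair 2, and -0.19 and -0.08 in pair 3.

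Differences between pairs were tested in the same edgeR fit, through the 2 pair coefficients with the population as a covariate. With all 3 pairs, 0 of 40 members had an adjusted p under 0.05 (smallest 0.164), against 0.115% of all genes. At an unadjusted p under 0.05 there were 16, against 13.5% of all genes, and DESeq2 called 2, against 2.17% of all genes: Mki67 (DESeq2 adjusted p = 0.0305) and Anln (DESeq2 adjusted p = 0.0424). With pair 2 left out, the test compares pair 1 with pair 3, 2 libraries each, and rests on 1 residual degree of freedom per gene plus the spread shared over genes. It called 15 of 40 members, against 6.23% of 14972 genes. All 15 were higher in pair 1, a direction called in 3.11% of all genes. All 40 members had a higher estimate in pair 1, with a median of 0.51, where all genes had one of 0.02 and 51.7% above 0. The main pair test is the one with all 3 pairs. Leaving out pair 1 instead called 0 members (0.0335% of all genes), and leaving out pair 3 called 1 (1.03%). Each pair holds 1 library of each population, so p-values of pair 1 against pair 3 do not measure variation among repeated pairs.

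The values that follow describe the 1 of the 3 fits with a pair left out that called the most members. The main pair test called 0 of them. The 15 members called between pairs 1 and 3 came from all 7 role groups. They were Ccna2, Cdc25b, Cdc25c, Bub1b, Ube2c, Cenpe, Cenpf, Incenp, Kif11, Kif23, Top2a, Smc2, Ncapg, Mki67 and Anln. Ccna2 was 1.85-fold higher in pair 1 (log2 0.89, SE 0.21; edgeR adjusted p = 0.00304) and Ube2c likewise 1.85-fold (log2 0.89, SE 0.21; edgeR adjusted p = 0.00245). Mki67 was 1.75-fold higher (log2 0.81, SE 0.21; edgeR adjusted p = 0.00698) and Top2a 1.74-fold (log2 0.80, SE 0.21; edgeR adjusted p = 0.00891). The range over the 15 was 0.64 to 1.15. Bub3 had the smallest estimate of the 40, at 0.076. The members Ccnb1, Ccnb2, Cdk1, Aurkb and Plk1 were not called, with estimates of 0.46, 0.35, 0.43, 0.58 and 0.61.

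Related gene lists were examined in the same way. Of 80 other G2 and mitosis genes, such as Ndc80, Nek2, Aspm and Wee1, none was called by edgeR or DESeq2. The log2 fold change was above 0 in 67 (83.8%, against 50.1% of all tested genes), with a median of 0.19. At an unadjusted p under 0.05 there were 5 by either tool, all higher. Over all genes the edgeR share was 5.08% in either direction, with 365 of 14785 genes higher. The DESeq2 share is not given here. The 3 of smallest p were Depdc1b, Cep55 and Kif18a, with log2 fold changes of 0.70, 0.73 and 0.59. Cep55 is a protein of the final cut between daughter cells, and Kif18a is a kinesin that limits chromosome movement. The pair medians of the 80 genes, 0.14, 0.57 and -0.13, had the order of the members' own. The CD38-negative library of pair 2 was the lowest in 49 of the 80, against 19.9% of all tested genes. Summed, the 80 genes ranged 1.73-fold between libraries where the 40 members ranged 2.14-fold.

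Genes of DNA replication and S phase showed part of the pattern. None of 52 was called by edgeR or DESeq2, with 0 at an unadjusted p under 0.05 by either. The log2 fold change was above 0 in 40 of the 52 (76.9%, against 50.1% of all tested genes), with a median of 0.125. Their pair medians were 0.06, 0.48 and -0.17, and their sum ranged 1.48-fold, from 6895 CPM in the CD38-negative library of pair 2 to 10176 CPM in its partner. Subunits of the anaphase promoting complex, which are present through most of the cycle, had a median of 0.03 with 8 of 16 above 0, and their sum ranged 1.27-fold. Genes of the DREAM and MuvB complexes and NF-Y, which bind the CHR and CCAAT elements, had a median of 0.002 with 8 of 15 above 0, and a range of 1.21-fold. In both lists 0 genes were called by either tool and 0 had an unadjusted p under 0.05.

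Marker genes of the cell types that a sorted pool could hold differed between libraries as well. The 13 stem cell markers, none at 0 in any library, summed to 892 and 1127 CPM in pair 1, 1146 and 2488 CPM in pair 2, and 1923 and 1666 CPM in pair 3. In order of libraries this was the exact reverse of the summed G2 and mitosis genes, although with unscaled totals the members' order changed within pairs 1 and 3 and the reversal was no longer exact. The CD38-negative library of pair 2, lowest in 34 members, was the highest in 7 of the 13 stem cell markers, and the CD38-positive library of pair 3 in the other 6. Kit, the receptor of stem cell factor and a sort marker, was at 133 and 210 CPM in pair 1, 110 and 556 CPM in pair 2, and 227 and 191 CPM in pair 3. Hlf, a transcription factor of HSCs, was at 37.1 and 48.4 CPM, 42.7 and 144 CPM, and 79.6 and 95.1 CPM. In pairs 1, 2 and 3 the CD38-positive library was higher in 5, 2 and 10 of the 13 markers, and Kit was among the 10. Hlf, Ly6a and Meis1 were lower in the CD38-positive library of 3 of 3 pairs (11.3% of all genes). Slamf1 (CD150, a sort marker) and Ctnnal1 went the other way, higher in the CD38-positive library of 3 of 3 pairs (13.2% of all genes). Both had their highest value in the CD38-positive library of pair 3. Slamf1 was at 23.0 and 22.2 CPM, 29.6 and 23.2 CPM, and 50.4 and 25.9 CPM. No stem cell marker passed the threshold in edgeR. At an unadjusted p under 0.05 edgeR found 4 lower in CD38-positive HSCs, Kit and Hlf among them, and 1 higher. Over all genes that share was 5.08% in either direction. With 6 libraries this is given as a description, and its part in the members' levels was not tested.

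Lists of more mature cells had other orders. The 6 promyelocyte granule genes summed to 8627 to 16253 CPM in CD38-positive and 9037 to 12226 CPM in CD38-negative libraries, and the CD38-positive library of pair 1 was the highest in 5 of 6. The 11 late neutrophil genes summed to 61607 to 147116 and 72574 to 118142 CPM, with that same library the highest in 10 of 11. The 12 erythroid genes summed to 4795 to 12497 and 7097 to 10772 CPM, highest in that library in 9 of 12. The CD38-negative library of pair 2 was the lowest in none of these 3 sums. The multipotent progenitor markers Cd34, Cd48 and Flt3 summed to 303 to 436 and 337 to 381 CPM.

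The remaining lists were small in summed level. In CD38-positive and CD38-negative libraries, respectively, 9 monocyte and dendritic genes summed to 412 to 542 and 312 to 542 CPM, 7 megakaryocyte genes to 95.8 to 262 and 151 to 163 CPM, and 12 B cell precursor genes to 171 to 385 and 213 to 314 CPM. The 8 T and NK cell genes summed to 141 to 338 and 186 to 302 CPM, most of it from Nkg7, at 118 to 314 and 163 to 277 CPM. Cd3e, a T cell gene, was at 0 reads in 4 of 6 libraries and at most at 0.24 CPM. The T cell genes Cd3d, Cd3g, Cd4 and Cd8a had reads in every library, at up to 1.92, 1.08, 5.95 and 0.78 CPM. The 7 plasma cell genes summed to 648 to 957 and 1059 to 3321 CPM, of which Xbp1 alone held 391 to 640 and 394 to 600 CPM. The log2 fold changes of Xbp1, Mzb1 and Sdc1 were 0.17, -0.12 and -0.43, and none was called by edgeR. Jchain (-4.26) and Igkc (-3.07) were lower in the CD38-positive library of 3 of 3 pairs, and edgeR did not call them either. Prdm1 was not tested, and it was higher in the CD38-positive library of 2 of 3 pairs. Igha of this list, an immunoglobulin heavy chain gene, was at 1.56 and 124 CPM in pair 1, 0.51 and 9.90 CPM in pair 2, and 79.8 and 708 CPM in pair 3. It was lower in CD38-positive HSCs in 3 of 3 pairs (log2 fold change -4.40, SE 0.46; edgeR adjusted p = 0.00246), and is named after its values were seen, as 1 of the 2 genes called between the populations. Apart from Cd3e, no marker of these lists was at 0 reads in any library. The part of these cell types in the members' levels was not tested.

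**Figure D5:**
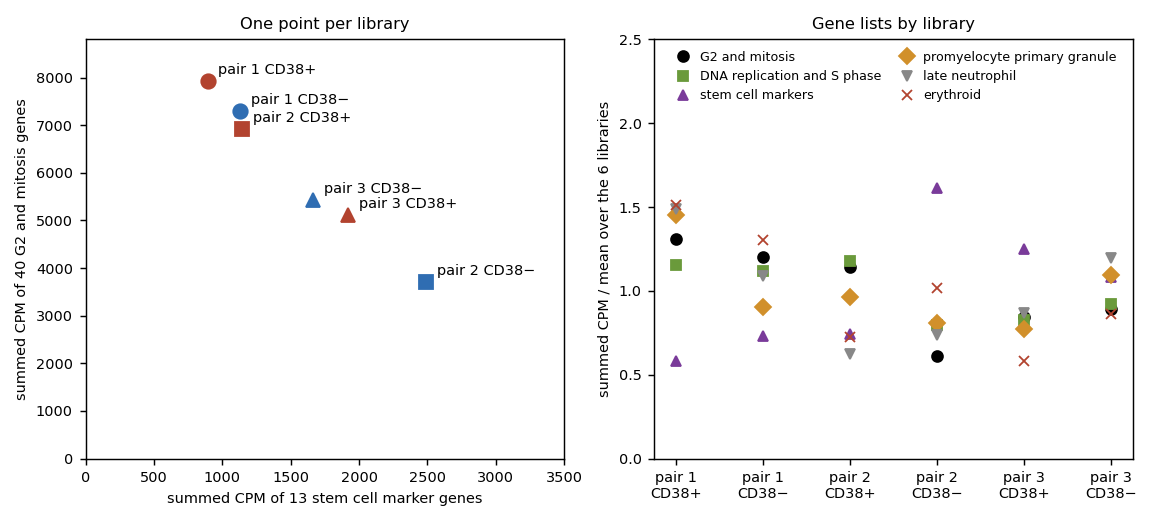
Left, summed CPM of the 40 G2 and mitosis genes against summed CPM of 13 stem cell markers, 1 point per library (red CD38-positive, blue CD38-negative; circle, square and triangle are pairs 1, 2 and 3). Right, summed CPM of 6 gene lists in each library divided by the list's mean over the 6 libraries; the CD38-negative library of pair 2 is lowest for the G2 and mitosis genes and highest for the stem cell markers.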

How the data were processed

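RNA of 6 pools of sorted mouse HSCs was sequenced, 3 CD38-positive and 3 CD38-negative, grouped by the population in the labels and paired by the series' design text. The authors deposited 1 file per library with raw read counts of 49585 Ensembl genes, not normalised. Cutadapt, STAR, HTSeq 0.6.1p1 and the build GRCm38/mm10 are named per the submitters' processing notes, without role or order; the strand setting and annotation release are not given in the sources used here. Symbols matched 49326 identifiers. Gene positions and exon lengths came from GENCODE M21 (GRCm38).

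Genes were kept by filterByExpr (14785 genes) and library sizes were scaled by TMM factors (trimmed mean of M-values). Tests used edgeR 4.0.16 in R 4.3.3: quasi-likelihood F-tests in a model of pair plus population, with Benjamini-Hochberg adjustment over all tested genes and a threshold of 0.05. The pair was a block because the design text pairs the libraries; after subtraction of each population's mean, the 2 libraries of a pair correlated over genes at 0.341, 0.118 and 0.24. With the pair as a block, p-values of the population test measure how far the differences within pairs vary from pair to pair. Those of the pair test rest on the same residual spread and do not measure variation among repeated pairs. Standard errors were derived from the F statistic. Paired differences are on log2 CPM, where the prior count was 2. The procedure was tested on simulated data. Alternatives were no block, DESeq2 1.42.0, other scalings and priors, no filter, and leaving out each pair.

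The members and lists were chosen with earlier results of these data known. Fold changes and all library values are printed for 8 fixed members, the 2 of highest mean CPM in each role group and the 5 of smallest p, 20 in all; of each related list at most the 3 genes of smallest p are named with values. Promoters were printed in order of mean CPM, passing over windows on chromosome 18 and, as a later step, windows that overlap an annotated exon.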

Additional observations from a re-analysis of the deposited data

How the results depend on the processing

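The call of 0 members between populations held under every setting tried. Without the replicate block the median log2 fold change of the members was 0.264, and it lay between 0.276 and 0.299 with DESeq2, other scalings or no filter. The number of members with an unadjusted p under 0.05 was 0 without the replicate block, 1 with unscaled library totals and 10 without the low-count filter. It was 0 to 13 with 1 pair left out. Shares over all genes at that threshold are not given here for these settings, so the counts cannot be set against them. Members with a positive log2 fold change numbered 20 to 38 with 1 pair left out, the 20 being without pair 2. The pair test called 2 members with DESeq2 (2.17% of all genes), 7 without the low-count filter (2.62% of 26504 genes) and 0 to 15 with 1 pair left out (0.0335% to 6.23% of all genes); it has no value without the block. With unscaled library totals the member median was -0.034 in pair 1 and 0.021 in pair 3. Bub3 had a log2 fold change of 0.001 with DESeq2, 0.001 with DESeq2 size factors and 0.002 without the filter, and -0.113 to 0.173 with 1 pair left out. Leaving out 1 pair moved the log2 fold change across 0 in 8 more of the 20 named members: Birc5 (-0.166 to 0.467), Ccnb1 (-0.049 to 0.493), Ccnb2 (-0.085 to 0.615), Cdca8 (-0.161 to 0.505), Kif20a (-0.05 to 0.501), Mki67 (-0.024 to 0.628), Plk1 (-0.008 to 0.632) and Prc1 (-0.031 to 0.581), each below 0 without pair 2. The cause was not tested. The other named members kept their direction. The members had at least 144 reads in every library, and the standard errors of the named members were 0.20 to 0.27 on the log2 scale (n = 3 pools per population).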
